A study of Mus musculus with 6 samples.

Results

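The nuclear long non-coding RNAs *Malat1* and *Neat1* and the genes of the 3 paraspeckle proteins SFPQ, NONO and PSPC1 were followed through the differentiation of C2C12 muscle cells. The 5 genes were chosen by symbol among the 54525 gene rows of each count table, all 5 symbols were found, and all 5 passed the filter on low counts. RNA-seq was performed on C2C12, an established line of mouse myoblasts that fuse into multinucleated myotubes when growth serum is replaced by horse serum. All libraries came from wild type (WT) cells that received no treatment, 3 libraries from proliferating myoblasts at day 0 (D0) and 3 from myotubes 5 days later (D5). The only comparison that the design allows is D5 against D0. Nothing in the labels says more about how the 3 cultures of a time point were kept apart, so p-values measure the spread between these samples, which may be technical.

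*Malat1* and *Neat1* are neighbouring genes whose transcripts stay in the nucleus. MALAT1 RNA gathers at nuclear speckles, which store splicing factors, whereas NEAT1 RNA is the scaffold of paraspeckles, nuclear bodies that hold back certain RNAs and proteins. SFPQ, NONO and PSPC1 are related RNA-binding proteins of the DBHS (Drosophila behaviour, human splicing) family, which pair with each other and coat the long NEAT1 transcript, and SFPQ and NONO also act in transcription, splicing and DNA repair.

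On GRCm38 (GENCODE M21 annotation), *Malat1* (ENSMUSG00000092341) lay at chr19:5795690-5802672 on the minus strand, with its full-length transcript in 1 exon of 6983 bases. *Neat1* (ENSMUSG00000092274) lay at chr19:5824708-5845478 on the same strand, with 22035 bases between the annotated ends of both genes. The annotation gives *Neat1* a long transcript of 20771 bases, the form known to build paraspeckles, and a short polyadenylated one of 3004 bases that lies within it. A count per gene cannot separate these forms. *Sfpq* lay at chr4:127021324-127037013 (plus strand), *Nono* at chrX:101429318-101448591 (plus strand) and *Pspc1* at chr14:56720710-56778316 (minus strand).

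The long *Neat1* transcript and *Malat1* share an unusual 3′ end, shown here because it sets both RNAs apart from those with a poly(A) tail. Whether the libraries were made by poly(A) selection is not given in the sources used here. Both RNAs are known to end in a genomically encoded A-rich tract, which folds back on upstream U-rich stretches into a triple helix and takes the place of a poly(A) tail. The enzyme RNase P makes this end by cutting off a small tRNA-like RNA. In the lines below, written 5′ to 3′ in the sense of each RNA, the capitals mark the last 10 bases of the long *Neat1* transcript and their exact reverse complement. The *Neat1* stretch lies at chr19:5824708-5824807 and that of *Malat1* at chr19:5795982-5796081, both 100 bases on the minus strand of GRCm38.
End of the long Neat1 transcript: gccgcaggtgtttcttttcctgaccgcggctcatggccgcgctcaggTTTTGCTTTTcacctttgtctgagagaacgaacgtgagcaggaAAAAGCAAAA
A-rich tract of Malat1: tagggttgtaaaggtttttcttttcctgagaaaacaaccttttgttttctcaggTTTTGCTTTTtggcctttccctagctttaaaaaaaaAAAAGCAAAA
Each of the capitalised stretches occurred 1 time in either transcript, 33 bases apart in *Neat1* and 26 bases apart in *Malat1*. Of 68537 annotated mouse transcripts of at least 1000 bases, 53 (0.0773%) held both AAAAGCAAAA and TTTTGCTTTT. In *Neat1* the tract was the end of the annotated transcript, whereas the annotated *Malat1* transcript ran on for 292 bases. The next 60 bases of *Malat1*, at chr19:5795922-5795981 and with no capitals, hold the tRNA-like part.
Bases of Malat1 after the tract: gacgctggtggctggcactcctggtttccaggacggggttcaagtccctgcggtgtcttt
The short *Neat1* transcript had no match to either stretch and ended, at chr19:5842307-5842366, with the polyadenylation signal AATAAA, which is in capitals.
End of the short Neat1 transcript: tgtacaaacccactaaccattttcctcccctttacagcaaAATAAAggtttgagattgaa

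Sequencing depth on genes ran from 25449759 to 40895840 counts, deeper at D0 than at D5, and 16290 genes were tested. By edgeR's quasi-likelihood test at an adjusted p of 0.05, 82.9% of them differed between the time points, of which those higher at D5 made up 42.2% of genes tested and those lower 40.8%. Lower genes were 49.2% of these calls, 76.6% without library scaling and 67.4% with scaling to the ERCC spike-in RNAs. Without library scaling, unequal depth moved the median log2 fold change of all genes to -0.68, and spike-in scaling moved it to -0.58. A rise clearly smaller than such a shift turns negative for any gene, so this sign change says nothing particular about that gene. All 6 myotube markers examined (*Myog*, *Mymk*, *Myh3*, *Ckm*, *Acta1* and *Tnnt3*) rose, and all 5 proliferation markers (*Mki67*, *Top2a*, *Ccnb1*, *Cdk1* and *Pcna*) fell. Of 7 markers of adipocytes (*Adipoq*, *Plin1*), leukocytes (*Ptprc*), endothelium (*Pecam1*), osteoblasts (*Bglap*, *Sp7*) and cartilage (*Col2a1*), 0 passed the filter on low counts, and each averaged under 1 CPM in both groups. The summed level of the 7 markers ran from 0.240 to 0.357 CPM at D0 and from 0.318 to 0.527 CPM at D5. In a bulk culture, fewer cells of a kind and less RNA per cell cannot be told apart, and D5 cultures can hold unfused cells.

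*Malat1* was the member that rose. Its reads numbered 493347, 530471 and 541532 at D0 and, in the shallower D5 libraries, 705427, 682586 and 716261. In CPM (counts per 1000000, scaled by edgeR's TMM factors), its levels were 13160, 12608 and 13437 at D0 and 28064, 27677 and 28768 at D5. Every D5 library stood above every D0 library. The mean level went from 13068 ± 422 CPM (SD, n = 3) to 28169 ± 553 CPM (n = 3), a 2.16-fold rise with a log2 fold change of 1.11 (SE 0.037, edgeR adjusted p = 3.32e-22). Of all genes tested, 82.4% had a lower log2 fold change.

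**Figure D1:**
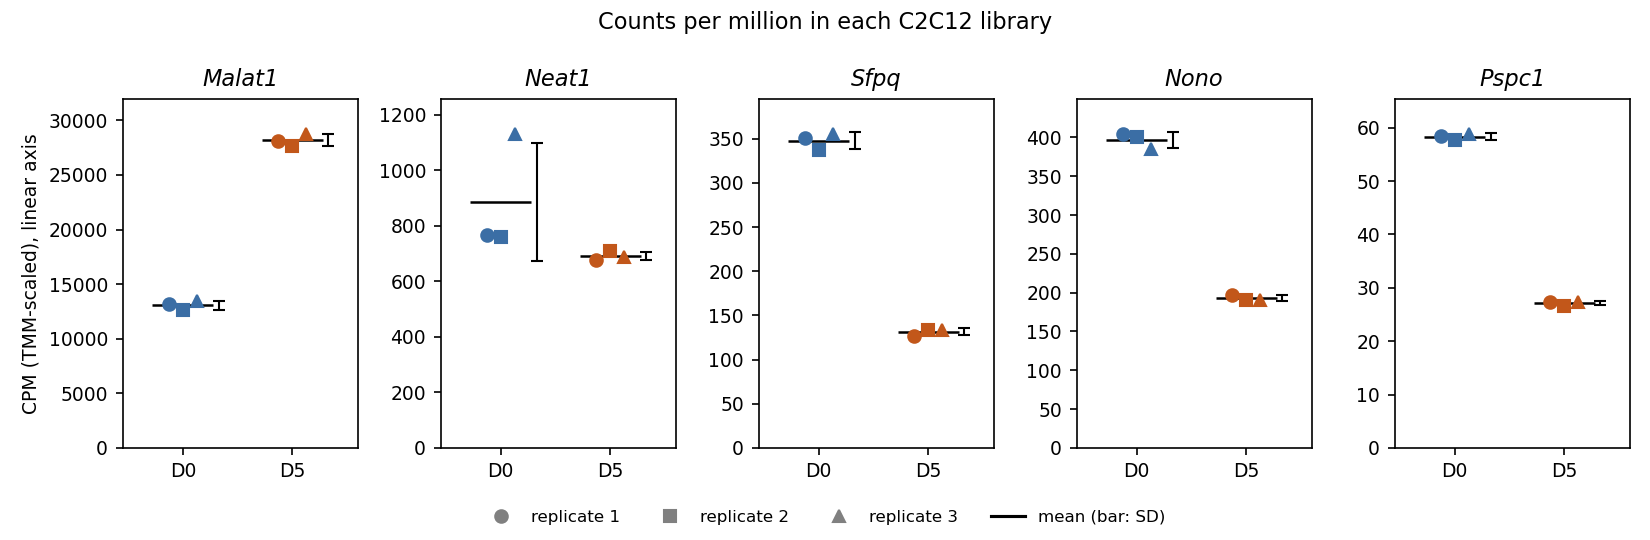
CPM of the 5 members (vertical axes, linear and starting at 0, 1 scale per gene) in the D0 and D5 libraries, with replicate 1 as circles, replicate 2 as squares and replicate 3 as triangles, horizontal lines for means and bars for SD (n = 3). The D5 points of *Malat1* lie above all its D0 points, those of the other 4 genes lie below, and D0 replicate 3 of *Neat1*, at 1131 CPM, stands far above the other D0 libraries.

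*Neat1* was lower at D5, by far less than the protein genes and with an uneven D0 group. Its counts were 28697, 31900 and 45566 at D0 and 17012, 17462 and 17131 at D5. On the CPM scale the D0 libraries were at 765, 758 and 1131, and the D5 libraries at 677, 708 and 688. The groups did not overlap, but the gap between them was small beside the distance of D0 replicate 3 from the other D0 libraries. The mean went from 885 ± 213 CPM (SD, n = 3) to 691 ± 15.8 CPM (n = 3), 78.1% of the D0 mean. The log2 fold change was -0.36 (SE 0.0795, edgeR adjusted p = 0.000162). This SE follows from the edgeR test statistic, which draws on the spread of other genes, and is not the replicate error of *Neat1* alone. Without D0 replicate 3 the log2 fold change was -0.15, still past the threshold (edgeR adjusted p = 0.000132), so that much of the size of the fall rested on 1 library. With DESeq2 on all 6 libraries, the log2 fold change of *Neat1* was -0.35 and the adjusted p was 0.101, which did not pass.

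D0 replicate 3 was examined further, because *Neat1* stood apart there more than nearly any other gene. Its level was 1.48 times the mean of the other 2 D0 libraries, while the other 4 members lay between 0.956 and 1.04 times. Among 7300 genes with a mean of at least 20 CPM at D0, 1 gene had a higher ratio. That gene was *Ccdc107* (1.57 times), whose start overlaps *Rmrp*, the RNA of a small ribonucleoprotein, on the opposite strand. *Rmrp* itself had 0 counts in every library. The next in order were *Rny1* (1.31 times) and *Rny3* (1.29 times), small cytoplasmic Y RNAs. These 3 genes were named after their values were seen, and their part in the *Neat1* value was not tested. The coefficient of variation of *Neat1* was 24.1% at D0 against a median of 2.57% over these genes, and 2.29% at D5 against 3.37%. The uneven spread of *Neat1* was therefore seen at D0 and not at D5.

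**Figure D2:**
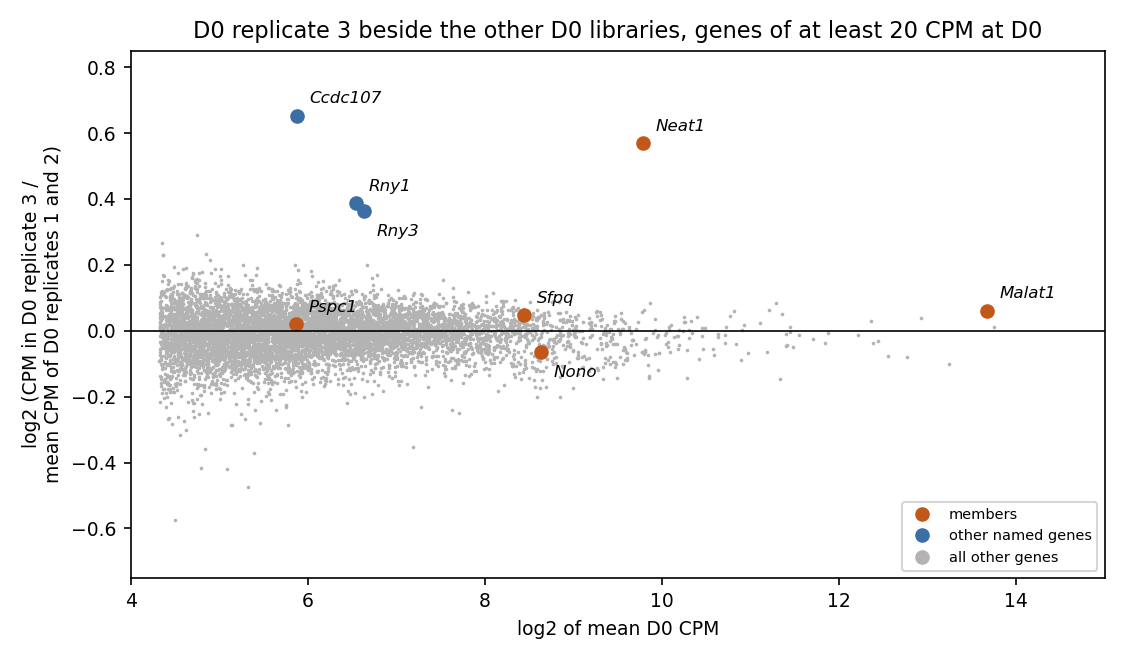
Each point is a gene with at least 20 CPM on average at D0, with the log2 of its mean D0 CPM on the horizontal axis and, on the vertical axis, the log2 ratio of D0 replicate 3 to the mean of D0 replicates 1 and 2. *Neat1* lies at 0.57 and *Ccdc107* at 0.65, followed by *Rny1* and *Rny3*, while *Malat1*, *Sfpq*, *Nono* and *Pspc1* lie near 0 with most genes.

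An antisense transcript, *Gm37376*, lies within *Malat1* on the opposite strand and overlaps 6.49% of its exonic length. It had 192, 160 and 472 counts at D0 and 145, 183 and 215 at D5, highest in the same D0 replicate 3. Its log2 fold change was 0.080 and did not pass (edgeR adjusted p = 0.748), whereas without D0 replicate 3 it was 0.70 and passed (edgeR adjusted p = 1.38e-05). The strand setting of the counting is not stated, so reads of *Gm37376* and *Malat1* may not have been told apart, and how many *Malat1* counts came from the antisense strand was not tested.

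The genes of the 3 paraspeckle proteins fell together. *Sfpq*, whose protein is needed for paraspeckles to form, had 13162, 14189 and 14336 counts at D0 and 3194, 3306 and 3318 at D5. Its D0 levels of 351, 337 and 356 CPM were all above the D5 levels of 127, 134 and 133 CPM. The mean of 348 ± 9.63 CPM at D0 (SD, n = 3) dropped to 37.8% of that level, 131 ± 3.83 CPM (n = 3). On the log2 scale the change was -1.40 (SE 0.0345, edgeR adjusted p = 1.02e-25). *Sfpq* had the largest fall of the 5 members. The gene *Gm12940* shares 216 exonic bases with it on the same strand and had from 146 to 685 counts per library.

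*Nono*, which encodes the partner with which SFPQ is most often found, had 15174, 16882 and 15528 counts at D0 and 4951, 4704 and 4751 at D5. In CPM the values were 405, 401 and 385 at D0 against 197, 191 and 191 at D5, with no overlap. The mean fell to 48.6% of its D0 level, from 397 ± 10.4 to 193 ± 3.57 CPM (SD, n = 3 each), which on the log2 scale was -1.04 (SE 0.033, edgeR adjusted p = 7.78e-23). Some *Nono* reads cannot be assigned for certain, since 666 of the 4445 stretches of 50 bases in its transcripts also occurred in 2 other genes. The closest of these, *Gm8806*, had from 3 to 22 counts per library.

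*Pspc1*, whose protein served as the founding marker of paraspeckles, was the least expressed. It had 2191, 2425 and 2372 counts at D0 and 689, 657 and 682 at D5, or 58.4, 57.6 and 58.9 CPM against 27.4, 26.6 and 27.4 CPM. Its mean at D5, 27.1 ± 0.440 CPM (SD, n = 3), was 46.6% of the D0 mean of 58.3 ± 0.622 CPM (n = 3). On the log2 scale this was -1.10 (SE 0.0441, edgeR adjusted p = 3.68e-20). No 50-base stretch of *Pspc1* occurred in another annotated gene. In all, 5 of 5 members passed the test, 1 higher and 4 lower, on a background of 82.9% of genes called, and in all 5 the groups did not overlap. Such separation was itself common, with every D5 library above every D0 library for 42.2% of the genes tested and below for 41.1%.

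As a share of all gene counts, which needs no scaling factor, *Malat1* took 1.35%, 1.30% and 1.39% of the D0 libraries and 2.73%, 2.68% and 2.79% of the D5 libraries. The Wilson 95% intervals of these shares cover counting error only and were narrow, for example from 2.73% to 2.74% in D5 replicate 1. The mean share rose from 1.35% ± 0.047 to 2.74% ± 0.0545 (SD, n = 3 each), by 1.39 percentage points or 2.03 times (two-sided exact permutation test, p = 0.1, the smallest that 3 against 3 libraries allow). Only *Ttn*, the gene of the giant sarcomere protein titin, gained more of the counts, with 1.70 points. *Malat1* was the second gene by share at D0, after *Fn1* (fibronectin), and the first at D5, ahead of *Ttn*.

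The other members took small and falling shares. *Neat1* held 0.0785%, 0.078% and 0.117% of gene counts at D0 and 0.0659%, 0.0686% and 0.0668% at D5. Its mean share went from 0.0912% ± 0.0224 to 0.0671% ± 0.00138, 0.736 times the D0 share. The difference was -0.0241 points with all libraries and -0.0112 points without D0 replicate 3. *Sfpq* went from 0.0358% to 0.0128%, *Nono* from 0.0409% to 0.0187% and *Pspc1* from 0.00601% to 0.00264% (means, n = 3 each). Each of these differences had p = 0.1 in the exact permutation test. Together, *Malat1* and *Neat1* rose from 1.44% ± 0.0668 to 2.80% ± 0.0536 of gene counts, a sum made up almost wholly of *Malat1*.

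Ratios of counts within a library compare members without any scaling between libraries. For 1 *Neat1* count there were 17.2, 16.6 and 11.9 *Malat1* counts in the D0 libraries and 41.5, 39.1 and 41.8 in the D5 libraries. The balance between the neighbouring genes thus moved towards *Malat1* in every D5 library. The log2 ratio of *Neat1* to *Malat1* fell from -3.91 ± 0.295 to -5.35 ± 0.0529 (SD, n = 3 each), a difference of -1.44, or 2.71-fold (exact permutation p = 0.1, adjusted p = 0.1 over the 5 ratios compared). Without D0 replicate 3 the difference was -1.27.

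Against the summed counts of the 3 protein genes, both RNAs gained. The count ratio of *Neat1* to *Sfpq*, *Nono* and *Pspc1* together was 0.940, 0.952 and 1.41 at D0 and 1.93, 2.01 and 1.96 at D5. Although *Neat1* itself was lower at D5, this ratio was 1.82 times higher there, as the log2 difference was 0.86 (exact permutation p = 0.1, adjusted p = 0.1). For *Malat1* the ratio to the same sum went from 16.2, 15.8 and 16.8 to 79.9, 78.8 and 81.8, a 4.93-fold rise (exact permutation p = 0.1, adjusted p = 0.1). This last ratio was added after the values were seen.

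**Figure D3:**
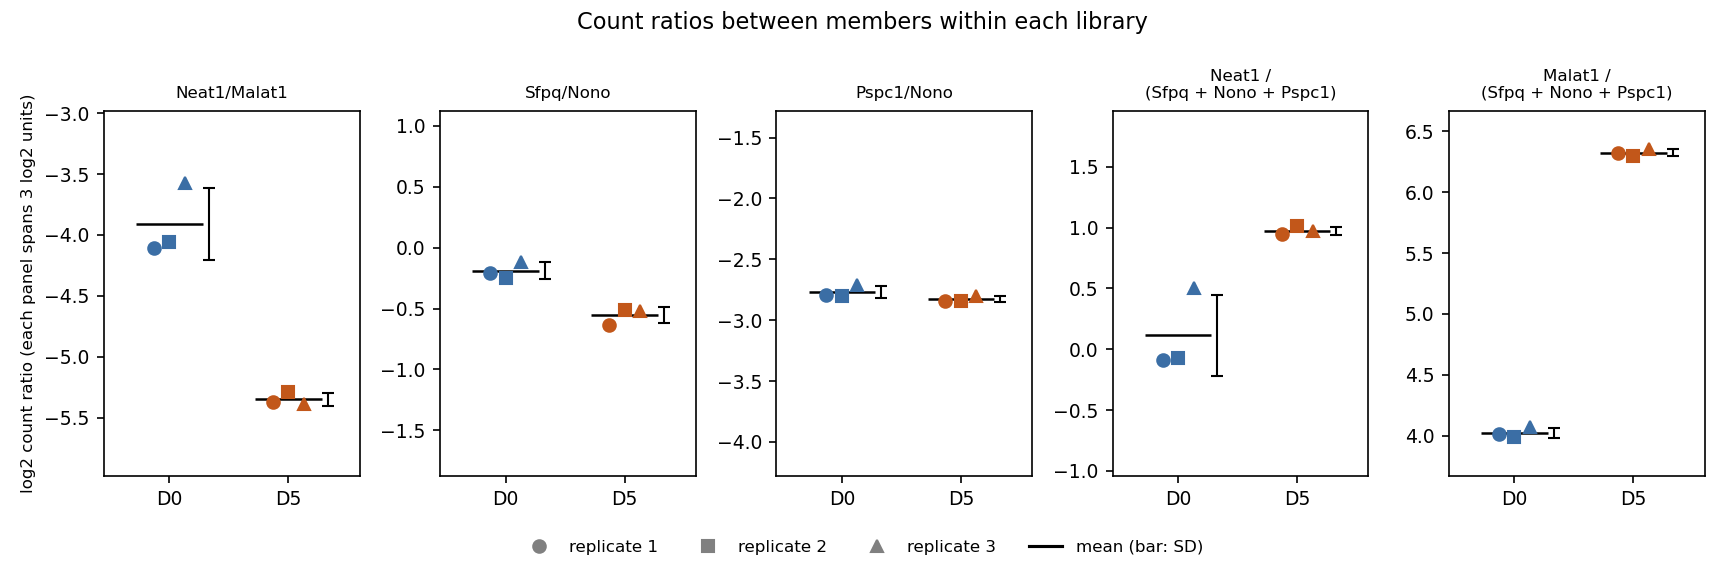
Log2 count ratios between members within each library (vertical axes, each spanning the same number of log2 units) at D0 and D5, with replicates 1, 2 and 3 as circles, squares and triangles, lines for means and bars for SD (n = 3). *Neat1* to *Malat1* falls by 1.44, *Pspc1* to *Nono* hardly moves, and the ratios of both RNAs to the summed protein genes rise.

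Within the protein trio the balance shifted away from *Sfpq*. For 1 *Nono* count there were 0.867, 0.840 and 0.923 *Sfpq* counts at D0 and 0.645, 0.703 and 0.698 at D5, a log2 difference of -0.36 (exact permutation p = 0.1, adjusted p = 0.1). The *Pspc1* to *Nono* ratio stayed much closer, at 0.144, 0.144 and 0.153 at D0 and 0.139, 0.140 and 0.144 at D5, a log2 difference of -0.061 (exact permutation p = 0.1, adjusted p = 0.1). Here the lowest D0 library and the highest D5 library were almost level.

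To compare levels between genes, counts were divided by exonic length and expressed as TPM (transcripts per 1000000). At D0 the order was *Malat1* (6476 ± 249 TPM), *Nono* (314 ± 4.71), *Sfpq* (254 ± 8.37), *Neat1* (148 ± 37.5) and *Pspc1* (35.2 ± 0.718). At D5 it was *Malat1* (12518 ± 365 TPM), *Nono* (137 ± 5.28), *Neat1* (103 ± 0.961), *Sfpq* (86.0 ± 0.859) and *Pspc1* (14.7 ± 0.495), each with SD and n = 3. *Neat1* and *Sfpq* thus exchanged places, and no neighbours in either order overlapped in their libraries. The TPM of *Neat1* is set by the 20771 bases of the long form, so it understates the number of molecules where reads come from the short form. By TPM, *Nono* made up 52.1% of the trio at D0 and 57.6% at D5, *Sfpq* 42.1% and 36.2%, and *Pspc1* 5.83% and 6.19%.

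The promoters of the genes that fell together and of the gene that rose were read from the RefSeq table for GRCm38.p6, as the 250 bases before each annotated start. Both strands were searched for the CCAAT box (these letters), the GC box GGGCGG, the TATA box as TATAAA and the muscle E-box as CAGCTG. A match on the other strand reads as its reverse complement. Matches are in capitals, and overlapping matches were counted separately. The windows of 4 members were in the table. The *Sfpq* window at chr4:127021051-127021300 (plus strand) held 4 CCAAT matches, of which 2 overlap in CCAATTGG.
Sfpq promoter: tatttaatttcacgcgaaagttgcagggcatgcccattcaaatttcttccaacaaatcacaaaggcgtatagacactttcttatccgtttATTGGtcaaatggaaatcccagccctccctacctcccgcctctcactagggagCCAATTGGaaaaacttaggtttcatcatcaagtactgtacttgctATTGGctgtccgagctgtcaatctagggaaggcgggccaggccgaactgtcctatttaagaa
The *Pspc1* window at chr14:56778319-56778568 (minus strand) held 1 CCAAT and 1 GGGCGG match.
Pspc1 promoter: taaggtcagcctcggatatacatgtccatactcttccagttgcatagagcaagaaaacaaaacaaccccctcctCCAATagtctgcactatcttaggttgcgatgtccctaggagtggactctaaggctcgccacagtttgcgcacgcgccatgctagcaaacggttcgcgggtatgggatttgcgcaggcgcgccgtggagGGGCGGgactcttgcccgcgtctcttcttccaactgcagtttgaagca
The *Nono* window, which lies inside another annotated *Nono* transcript and is not printed, held 2 CCAAT matches. The *Malat1* window at chr19:5802673-5802922 (minus strand) held no match to any of the 4 motifs.
Malat1 promoter: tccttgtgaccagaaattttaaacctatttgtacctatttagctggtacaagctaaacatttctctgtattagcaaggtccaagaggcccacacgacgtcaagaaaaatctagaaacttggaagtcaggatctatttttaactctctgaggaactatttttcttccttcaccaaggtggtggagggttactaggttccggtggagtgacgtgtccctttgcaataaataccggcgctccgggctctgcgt
CCAAT occurred in 33.8% of 32851 mouse promoter windows of this length, GGGCGG in 32.7%, TATAAA in 12.4% and CAGCTG in 4271 windows. A match to such short letters is a description of the window and not a binding site.

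The genes of most other paraspeckle proteins were lower at D5 as well. Only RNA was counted, and protein levels were not measured in these libraries. The genes examined of 5 further proteins known to be needed for paraspeckle assembly all fell. Their median log2 fold change was -0.97 against 0.0022 over all genes tested. They were *Dazap1* (-1.53), *Rbm14* (-1.51), *Hnrnpk* (-0.97), *Smarca4* (-0.70) and *Hnrnph3* (-0.40), the first 3 being RNA-binding proteins and *Smarca4* the ATPase of the SWI/SNF chromatin remodeller. Of 26 genes of other paraspeckle proteins that passed the filter, out of 27 listed, 18 fell, 6 rose and 2 did not pass the test. Their median was -0.66. Among those with at least 10 CPM in a group, the largest falls were those of the RNA-binding proteins *Hnrnpa1* (-1.79), *Hnrnph1* (-1.25), *Rbmx* (-1.23) and *Srsf10* (-1.16). *Fign*, at 1.51 CPM at D0 and 0.455 CPM at D5, fell by 1.72 on the log2 scale. Among those that rose were *Cirbp*, a cold-inducible RNA-binding protein (1.15), and *Akap8l* (0.80). With scaling to the spike-in RNAs neither passed, *Cirbp* at 0.59 (edgeR adjusted p = 0.391) and *Akap8l* at 0.26 (edgeR adjusted p = 0.724). Without library scaling *Akap8l* did not pass either (0.11, edgeR adjusted p = 0.15). *Zc3h6* (0.58) and *Ahdc1* (0.30) rose here but had negative values without library scaling or with scaling to the spike-in RNAs. Together, 23 of 31 genes of paraspeckle proteins besides the trio were lower at D5, or 74.2% against 40.8% of all genes tested. With scaling to the spike-in RNAs, 16 of the 31 were called lower, beside 3747 of all genes tested.

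**Figure D4:**
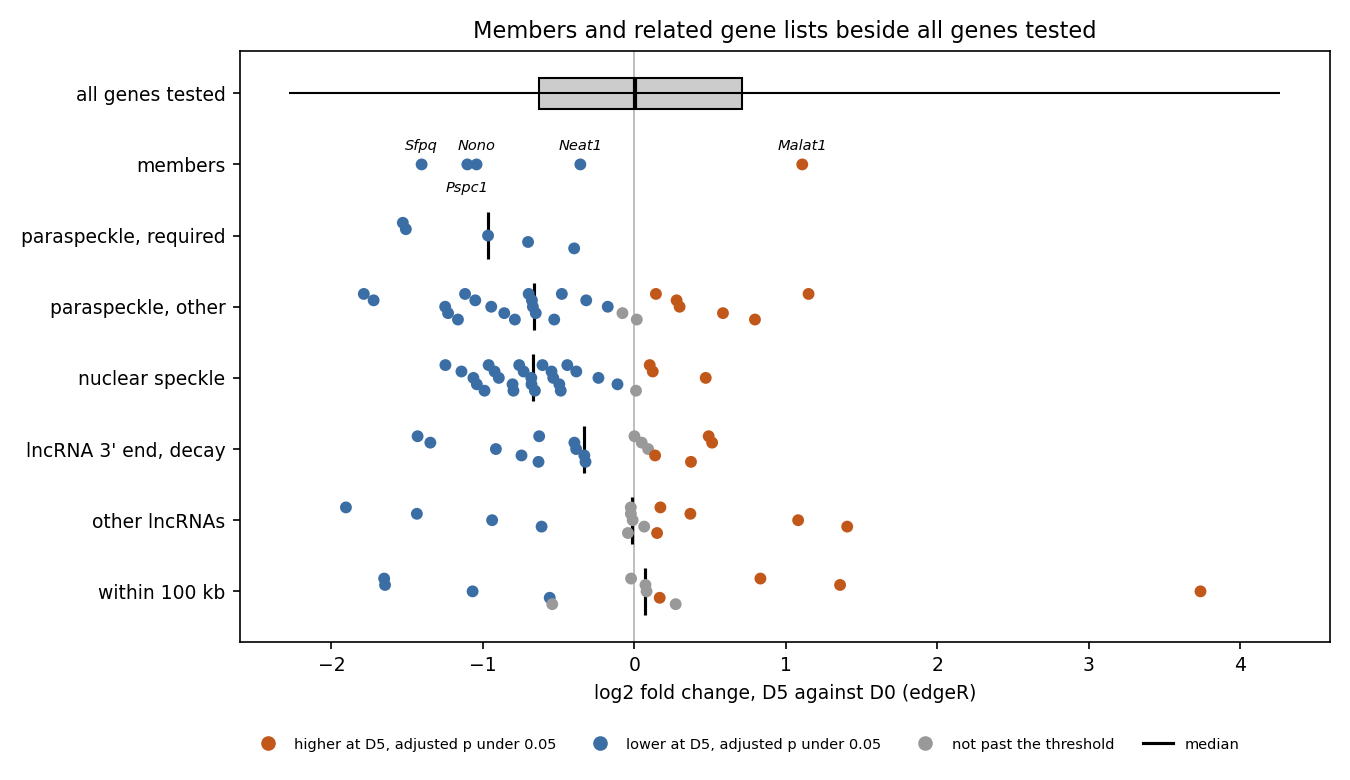
Log2 fold change of D5 against D0 (horizontal axis) for the 5 members, named, and for 6 related gene groups, 1 point per gene, in orange where higher, blue where lower and grey where not past an adjusted p of 0.05, with vertical lines for the median of each group. The grey box spans the 25th to the 75th percentile of all genes tested and its line the 5th to the 95th. *Malat1* stands alone on the right among the members, and most genes of paraspeckle and nuclear speckle proteins lie to the left of 0.

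The genes of nuclear speckle proteins, the neighbours of MALAT1 RNA in the nucleus, were mostly lower in RNA at D5 while *Malat1* rose. Of 28 listed and tested, 24 fell, 3 rose and 1 did not pass, with a median log2 fold change of -0.67. Those that fell were 85.7% of the list, against 40.8% of all genes tested. With scaling to the spike-in RNAs, 14 of the list were called lower, beside 3747 of all genes tested. The largest falls were those of the splicing factors *Srsf7* (-1.25) and *Srsf2* (-1.14), the speckle matrix protein *Srrm1* (-1.06) and the RNA helicase *Ddx39b* (-1.04). The 3 that rose, *Clk1* (0.47), *Srsf5* (0.12) and *Son* (0.10), all turned negative without library scaling and with scaling to the spike-in RNAs. *Son* encodes a core protein of speckles, and its mean went from 513 to 551 CPM.

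Genes that make or remove the 3′ ends of these RNAs were divided. Of 17 tested among 18 listed, 10 fell, 4 rose and 3 did not pass, with a median log2 fold change of -0.33. The falls were 58.8% and the rises 23.5%, against 40.8% and 42.2% of all genes tested. Subunits of RNase P, which cuts both RNAs at the A-rich tract, went both ways, with *Pop1* (-1.43), *Pop4* (-1.35) and *Rpp30* (-0.75) lower, and *Rpp14* (0.51) and *Rpp21* (0.37) higher. *Elac2* (0.49), the tRNA 3′ end nuclease that trims the tRNA-like product, and *Trnt1* (0.14), which adds CCA to it, were also higher. The values of *Rpp14*, *Rpp21*, *Elac2* and *Trnt1* turned negative without library scaling and with scaling to the spike-in RNAs. *Zcchc8* (-0.91), a subunit of a nuclear exosome adaptor, was lower.

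Of the genes of 5 transcription factors known to induce *Neat1*, 4 were lower at D5, on a background of 40.8% of genes tested called lower. *Trp53* (p53) had a log2 fold change of -1.24, *Hif1a* of -0.70, *Hsf1* of -0.60 and *Atf2* of -0.41. With scaling to the spike-in RNAs, *Hsf1* (edgeR adjusted p = 0.0652) and *Atf2* (edgeR adjusted p = 0.135) did not pass. Whether these factors bear on the level of *Neat1* was not tested. *Epas1* (HIF-2α) rose by 2.16 but from a very low level, 0.442 to 1.99 CPM. *Slc7a2*, the gene of a cationic amino acid transporter whose long nuclear transcript is the classical RNA retained in paraspeckles, rose by 2.88 on the log2 scale (edgeR adjusted p = 1.47e-30), from 14.4 ± 0.501 CPM to 106 ± 3.99 CPM (SD, n = 3 each). Its D0 libraries were at 14.32, 13.97 and 14.96 CPM and its D5 libraries all above 100 CPM. A count per gene does not separate the nuclear transcript from the coding mRNA.

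Other long non-coding RNAs went both ways. Of 14 tested among 18 listed, 5 rose, 4 fell and 5 did not pass, with a median log2 fold change of -0.017. The rises were 35.7% and the falls 28.6%, against 42.2% and 40.8% of all genes tested. *1700020I14Rik* (1.40) and *2900097C17Rik* (1.08) rose by amounts near that of *Malat1*, whereas *Mir17hg* (-1.90), *Pvt1* (-0.94) and *Kcnq1ot1* (-0.61) fell. *Lncpint* (0.37) and *H19* (0.17) rose, but both turned negative without library scaling or with scaling to the spike-in RNAs, and *H19* also with an offset for GC content and length.

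Some RNAs without a poly(A) tail were present in the libraries. *Rn7sk*, the 7SK RNA that holds back the elongation factor P-TEFb, had from 344017 to 406419 counts per library and took 0.998% of gene counts at D0 and 1.43% at D5. Its log2 fold change was 0.61, which turned to -0.074 without library scaling. With scaling to the spike-in RNAs it was 0.051 and did not pass (edgeR adjusted p = 0.949). *Terc*, the telomerase RNA, had a log2 fold change of -0.42, which turned positive with the offset for GC content and length. *Rmrp*, with 0 counts in every library, and *Rpph1*, with at most 7 counts in a library, did not pass the filter. Whether libraries differed in how much RNA without a tail they captured, and the part of this in the values of *Malat1* and *Neat1*, was not tested.

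Genes around the locus did not move as a block. Of 21 other genes examined within 100 kb of *Malat1* or *Neat1*, 13 were tested, and 4 rose, 4 fell and 5 did not pass. Each direction made up 30.8% of those tested, against 42.2% higher and 40.8% lower over all genes tested. *Cdc42ep2* (log2 fold change 3.74), *Ehbp1l1* (1.36), *Ltbp3* (0.83) and *Dpf2* (0.17) were higher, the last turning negative without library scaling and with scaling to the spike-in RNAs. *Tigd3* (-1.65), *Pola2* (-1.65), *Frmd8* (-1.07) and *Map3k11* (-0.56) were lower. The remaining 5 had values of -0.54 for *Frmd8os*, -0.022 for *Slc25a45*, 0.073 for *Sssca1*, 0.080 for *Gm37376* and 0.27 for *Gm42067*, and the first 4 of these passed the test in at least 1 alternative. *Frmd8*, the nearest protein-coding gene on the far side of *Neat1*, went from 77.0 to 36.7 CPM, a larger fall than that of *Neat1* itself.

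The genes most like each member were found by the distance between log2 CPM profiles, each centred on its own mean, over the 6 libraries and 7628 genes with a mean of at least 20 CPM. For *Malat1* these were *Rab33b* (distance 0.056), *Slc48a1* (0.058) and *Slc8b1* (0.065), with log2 fold changes from 1.10 to 1.12. *Neat1* had no close match, its nearest being *Parp8* (0.33), *Ccdc107* (0.35) and *Depdc5* (0.35). The nearest to *Sfpq* were *Mkl1*, *Cep135* and *Cd82*, those to *Nono* were *Umps*, *Rcn1* and *Txn1*, and those to *Pspc1* were *Qser1*, *Tubb4b* and *Set*, all at distances of at most 0.057. Between members, *Nono* and *Pspc1* were closest (0.11), and *Pspc1* ranked 55 among the genes compared with *Nono*. These likenesses are descriptions over libraries that share the D0 to D5 difference.

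**Figure D5:**
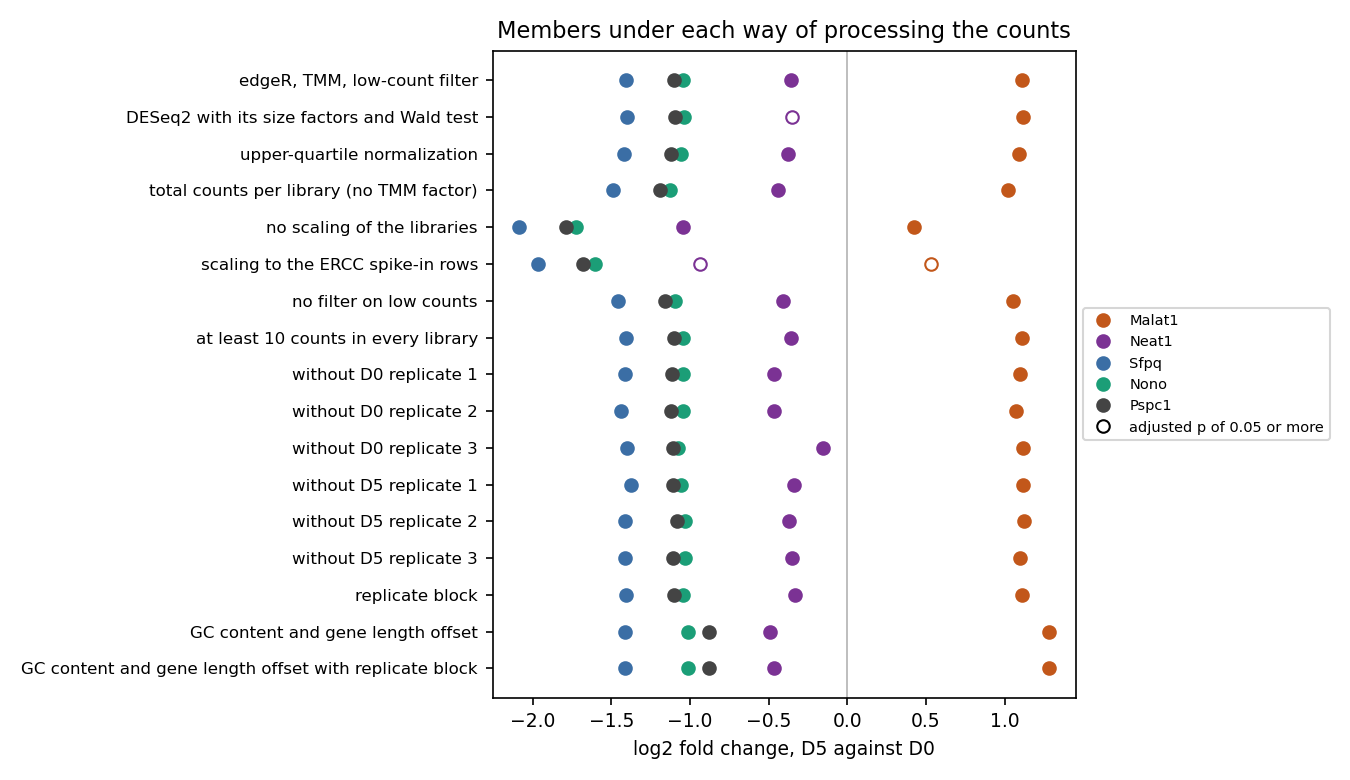
Log2 fold change of D5 against D0 (horizontal axis) of the 5 members under the reported fit (top line) and 16 other ways of processing the counts (1 per line), with open circles where the adjusted p was 0.05 or more. All points of *Malat1* lie above 0 and all those of the other 4 genes below, and the open circles are *Neat1* with DESeq2 and *Neat1* and *Malat1* with scaling to the spike-in RNAs.

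The direction of all 5 members was kept in each of the 16 alternatives, but the size depended on how libraries were scaled. Without scaling the median log2 fold change of all genes moved to -0.68, and with scaling to the ERCC spike-in RNAs, which took from 0.720% to 2.09% of the counts, to -0.58. With the spike-in scaling the log2 fold changes were 0.53 for *Malat1* (edgeR adjusted p = 0.426) and -0.93 for *Neat1* (adjusted p = 0.148), so neither passed, whereas *Sfpq*, *Nono* and *Pspc1* did. Relative to the median of all genes the spike-in scaled values were 1.11 for *Malat1*, -0.36 for *Neat1*, -1.39 for *Sfpq*, -1.03 for *Nono* and -1.10 for *Pspc1*. A change of scaling moves all genes by nearly the same amount, so these values restate the reported fit and are no separate evidence.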

How the data were processed

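RNA-seq of 3 D0 and 3 D5 libraries of C2C12 cells was re-analysed. The authors aligned reads to GRCm38 (mm10) and deposited raw counts per gene from featureCounts without normalization, 1 table per library. The methods name HISAT2 and FastQC, the labels Tophat2 and NGS-QC-Toolkit. How reads that map to several places were handled, the strand setting and the annotation release are not given in the sources used here. The submitters' processing notes also name DESeq2 (1.6.3). The 92 ERCC rows and 1 row without a name, the column total, were kept out of the library totals and the tests. Of the gene rows, 99.9% had an identifier of GENCODE M21, which gave positions, exonic length and GC content, and RefSeq (GRCm38.p6) gave promoters.

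Library depth on genes ran from 25449759 to 40895840 counts, so up to 3 counts in a library counted as no detection. Wilson intervals and this limit cover counting error only. Pairs of replicates differed by more than sampling noise (chi-square per degree of freedom 2.28 to 3.71), so none was a repeated library. Genes were filtered (filterByExpr), scaled by TMM and tested with edgeR (4.0.16, R 4.3.3) by its quasi-likelihood test with Benjamini-Hochberg adjustment over 16290 genes. Data were simulated for these genes with 200 of them changed 2-fold, and 15929 genes passed the filter. Of the changed genes tested, edgeR recovered 92.2%, and 6.81% of its calls were on unchanged genes. DESeq2 recovered 88.1%, with 1.73% of its calls on unchanged genes. In the simulation few genes changed, as many up as down, whereas 82.9% of genes tested were called here. Its rates therefore do not cover errors that come from the choice of scaling. Shares and ratios were tested by two-sided exact permutation over samples. Alternatives were DESeq2 (1.42.0), other scalings and filters, leaving out each library, the replicate number as a block, and offsets for GC content and gene length.

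The 5 members and all gene lists were chosen with earlier results of these data known. Genes were named by a fixed rule: each member, lists of up to 8 in full, from longer lists the 4 largest rises and falls past the threshold with at least 10 CPM in a group, tested genes within 100 kb, and the 3 nearest profiles per member. A few genes of these lists are not reported here and are left out of the list counts.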

Additional observations from a re-analysis of the deposited data

How the results depend on the processing

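Directions of the 5 members were the same in all 16 alternatives, and their calls in all 30 fits that left out 1 library. The log2 fold change ran, over those fits, from 1.07 to 1.13 for *Malat1*, -0.47 to -0.15 for *Neat1*, -1.44 to -1.38 for *Sfpq*, -1.08 to -1.03 for *Nono* and -1.12 to -1.08 for *Pspc1*, where a group left with 2 libraries takes its spread from both groups. DESeq2 called 12765 genes and 4 members, losing *Neat1* (-0.35, adjusted p = 0.101). Scaling to the spike-in RNAs, whose share differed between libraries of the same group, left 5560 genes called in place of 13510, of which 3747 were lower, and 3 members. *Malat1* was then at 0.53 (adjusted p = 0.426) and *Neat1* at -0.93 (adjusted p = 0.148), so that 0 members were called higher. Of the genes of paraspeckle proteins 16 were then called lower and 0 higher, and of those of nuclear speckle proteins 14 lower and 0 higher. Without library scaling 10953 genes were called lower, with 1 paraspeckle and 0 nuclear speckle protein genes higher. Scaling to total counts, and testing with no filter on low counts, each left 1 nuclear speckle protein gene higher. Correcting for base composition and gene length gave 1.28 for *Malat1*, -0.49 for *Neat1* and -0.88 for *Pspc1*. Over the alternatives, the adjusted p was at most 0.426 for *Malat1*, 0.148 for *Neat1*, 0.00122 for *Sfpq*, 0.00933 for *Nono* and 0.00709 for *Pspc1*. Without library scaling the shift follows from unequal depth, and the causes of the other shifts were not tested. Depth did not limit the members, the lowest count being 657, and the number of libraries sets the smallest exact p at 0.1.

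Of 77 other named genes that passed the test, 14 changed sign in an alternative. For small rises, a change of sign without library scaling or with spike-in scaling follows from the shift of all genes. Without library scaling and with scaling to the spike-in RNAs, in this order, the log2 fold changes were -0.38 and -0.28 for *Ahdc1*, -0.21 and -0.11 for *Clk1*, -0.51 and -0.41 for *Dpf2*, -0.19 and -0.085 for *Elac2*, -0.51 and -0.38 for *H19*, -0.31 and -0.22 for *Lncpint*, -0.17 and -0.029 for *Rpp14*, -0.31 and -0.21 for *Rpp21*, -0.58 and -0.45 for *Son*, -0.56 and -0.43 for *Srsf5*, -0.55 and -0.42 for *Trnt1*, and -0.096 and -0.020 for *Zc3h6*. *Rn7sk* was at -0.074 without library scaling and at 0.051 with scaling to the spike-in RNAs. With the spike-in scaling, 19 named genes, *Rn7sk* among them, kept their sign but did not pass. After the correction for base composition and gene length, *H19* was at -0.17, *Son* at -0.014 and *Terc* at 0.24, without and with the replicate block. Of the 5 named genes that did not pass, 4 changed sign in an alternative and 4 passed in one. *Gm37376* passed without D0 replicate 3 (0.70), after the correction for base composition and length (0.56, and 0.60 with the replicate block) and, with the opposite sign, without library scaling (-0.60). *Slc25a45* passed after that correction (-0.35 without and with the block) and without library scaling (-0.70), where *Sssca1* (-0.61) and *Frmd8os* (-1.22) passed too.

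The replicate numbers were not taken as pairs, since deviations of libraries with the same number correlated by 0.033, 0.064 and 0.028, although each library correlated best with its own number. With the replicate block 13558 genes and all 5 members were called, with log2 fold changes of 1.11 for *Malat1*, -0.33 for *Neat1*, -1.40 for *Sfpq*, -1.04 for *Nono* and -1.10 for *Pspc1*, and no call of a member changed.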
